A study of Homo sapiens with 16 samples.

Results

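The clusters described here are the regions bound by AIB1 at ABLIM1 and ABLIM3, a pair of genes that encode actin-binding LIM proteins. They were taken from 4 deposited lists as every cluster that overlaps the body of either gene or lies within 100 kb of its canonical transcription start site (TSS). The rule found 4 distinct clusters of 897 in the series, 1 at ABLIM1 and 3 at ABLIM3. They account for 9 of the 1378 list entries, because a cluster can be in several lists. Both genes were chosen by the positions of the clusters and their ranks in these lists, so the presence of a cluster is a description and was not tested.

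The series mapped AIB1, a coactivator of nuclear receptors and the product of NCOA3, by chromatin immunoprecipitation sequencing (ChIP-seq) in mammary epithelial lines. The ChIP groups were MCFDCIS-D4, MCFDCIS, MCF10A-D4 and MCF10A cells, each with 3 ChIP samples and 1 input sample, all grown with horse serum, EGF, hydrocortisone, cholera toxin and insulin. MCF10A is a non-tumorigenic human breast epithelial line, and MCFDCIS is a line derived from it that forms lesions resembling ductal carcinoma in situ. The labels mark the D4 lines by name only, and the series title refers to AIB1D4, a splice isoform of AIB1 that lacks the N-terminal part of the protein. The sources used here do not state how the D4 lines were made or whether the 3 samples of a group were separate cultures. Each group has a single list without replicate values, so no value below has a replicate error and no difference between lists was tested.

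The sample descriptions cite the list named after the other cell line, whereas parental and D4 status match. Lists are therefore called MCFDCIS-named and MCF10A-named, and which line each belongs to is uncertain. The lists held 99 (MCFDCIS-named D4), 651 (MCFDCIS-named parental), 138 (MCF10A-named D4) and 490 (MCF10A-named parental) clusters. Sequencing depth is unknown. A cluster below the lowest listed score, which was between 6.995 and 7.11 in the 4 lists, would not be seen, so a cluster that is missing from a list is not shown to be unbound. ChIP lists do not measure expression, and the labelled cell type could be looked at only by position. Of 6 basal mammary genes (KRT5, KRT14, KRT17, KRT6A, TP63 and ITGB4), the same rule found a cluster for 0 (MCFDCIS-named D4), 6 (MCFDCIS-named parental), 1 (MCF10A-named D4) and 5 (MCF10A-named parental). In the same order, 1.55%, 6.41%, 1.04% and 4.18% of the 18866 protein-coding genes on chromosomes with clusters had one. Of 6 luminal genes 2 (ESR1 and KRT19) had a cluster in each parental list and 0 in each D4 list. Of 4 blood cell genes CD14 alone had one, in all but the MCFDCIS-named D4 list. Of 3 fibroblast and 1 endothelial gene 0 had one in any list. Genes close to each other can be counted for the same cluster, so these genes are not independent. The cell type was not tested.

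Actin-binding LIM proteins carry LIM domains, zinc-binding folds that hold other proteins, followed by a villin headpiece that binds filamentous actin. They link signalling proteins to the actin cytoskeleton. ABLIM1, the first described, is known from retina and muscle. In mouse, ABLIM3 binds STARS, the product of ABRA, and with it raises transcription by serum response factor (SRF), a factor that binds CArG boxes and controls many cytoskeletal genes.

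Sequences of the clusters are shown because the clusters differ in base composition and in the motif letters in or around them. All are from the plus strand of GRCh37. In the first 3, capitals mark the cluster itself. The ABLIM1 cluster is shown with flanks (chr10:116484135-116484374), as is the upstream ABLIM3 cluster of the MCF10A-named D4 list (chr5:148493285-148493524). The ABLIM3 cluster at the start site is a 10 bp interval, shown with the bases just before it (chr5:148521382-148521411). In the last 2, which come from a 1360 bp cluster upstream of ABLIM3 (chr5:148513901-148515260), capitals mark motif letters.
ABLIM1 intragenic cluster: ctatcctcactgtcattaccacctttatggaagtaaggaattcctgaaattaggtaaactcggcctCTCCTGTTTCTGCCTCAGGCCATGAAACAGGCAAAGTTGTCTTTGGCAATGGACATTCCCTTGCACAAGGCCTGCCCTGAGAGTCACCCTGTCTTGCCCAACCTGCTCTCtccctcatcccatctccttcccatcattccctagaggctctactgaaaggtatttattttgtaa
ABLIM3 far upstream cluster: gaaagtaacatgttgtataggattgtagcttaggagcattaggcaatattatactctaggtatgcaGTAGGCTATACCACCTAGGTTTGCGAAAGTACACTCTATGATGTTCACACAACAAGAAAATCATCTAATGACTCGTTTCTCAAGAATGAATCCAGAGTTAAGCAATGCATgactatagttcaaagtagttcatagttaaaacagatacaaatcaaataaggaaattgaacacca
ABLIM3 start-site cluster: tccaatctgaggagcaggaGGACCGGGGCg
ABLIM3 near upstream cluster, AP-1 and GRE letters (chr5:148514069-148514301): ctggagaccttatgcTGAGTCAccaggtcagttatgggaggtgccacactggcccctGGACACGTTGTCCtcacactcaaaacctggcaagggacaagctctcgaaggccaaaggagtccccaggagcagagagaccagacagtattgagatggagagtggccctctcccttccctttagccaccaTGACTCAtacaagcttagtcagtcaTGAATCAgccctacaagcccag
ABLIM3 near upstream cluster, CArG letters (chr5:148514534-148514643): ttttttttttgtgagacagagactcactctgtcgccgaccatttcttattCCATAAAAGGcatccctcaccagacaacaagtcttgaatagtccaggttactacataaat

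ABLIM1 had a single cluster, and it was in 3 of the 4 lists. It lay at chr10:116484201-116484310, was 110 bp wide and was in the MCFDCIS-named D4, MCFDCIS-named parental and MCF10A-named parental lists. The MCF10A-named D4 list did not hold it. By the same rule 1.55% of the 18866 protein-coding genes on chromosomes with clusters had one in the MCFDCIS-named D4 list, 6.41% in the MCFDCIS-named parental, 1.04% in the MCF10A-named D4 and 4.18% in the MCF10A-named parental list. Of the 490 MCF10A-named parental clusters 67 were in the MCF10A-named D4 list with identical ends, so most were missing from it, as the ABLIM1 cluster was.

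The ABLIM1 cluster was far from any start site of the gene. ABLIM1 (ENSG00000099204) runs on the minus strand over 336.9 kb (chr10:116190871-116527820), with 15 annotated transcripts, 11 of them protein-coding. The cluster was 66.2 kb upstream of the canonical TSS and inside the gene only because transcript ABLIM1-214 starts further upstream. In that transcript it was in intron 1, which spans 166.1 kb, 43.5 kb after the start. The nearest start of a coding ABLIM1 transcript, that of ABLIM1-202, was 39.4 kb away. FHIP2A was the other protein-coding gene whose window held this cluster, at 97.2 kb from its canonical TSS, so the window itself does not tell these genes apart. Within 1000 kb of the ABLIM1 canonical TSS there was no further cluster in any list, and the nearest cluster outside the rule was 1772 kb away, in PNLIPRP3.

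The ABLIM1 cluster stood near the top of 2 of the 3 lists that held it, 1 D4 and 1 parental. The deposited score, a number that the authors gave each cluster and whose definition the files do not state, placed it at rank 4 of 99 in the MCFDCIS-named D4 list with 21.9. In the MCFDCIS-named parental list it stood at rank 220 of 651 with 29.1. In the MCF10A-named parental list it stood at rank 15 of 490 with 50.7. It was thus above the median score of each list that held it, 2.32 times the median of the MCFDCIS-named D4 list, 1.45 times that of the MCFDCIS-named parental and 4.19 times that of the MCF10A-named parental list. The MCFDCIS-named D4 and parental lists shared 65 clusters. Among these the ABLIM1 cluster stood at rank 4 by D4 score and 26 by parental score. The parental lists shared 307 clusters, among which it stood at rank 149 by MCFDCIS-named and 15 by MCF10A-named score. These positions describe 1 list each, and no change in binding is read from them.

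**Figure D1:**
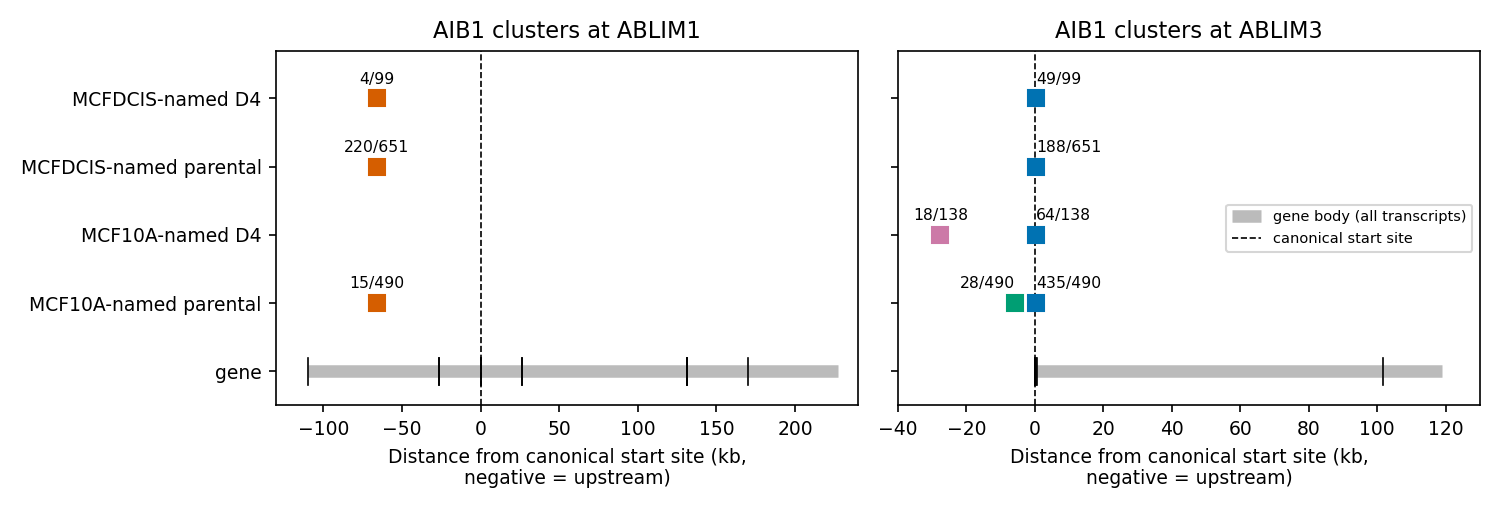
Position of each AIB1 cluster (squares) against the canonical start site of ABLIM1 and ABLIM3 in kb along the gene's own direction, by list, with its rank by score and the list length above it. Grey bars are gene bodies and short ticks are starts of protein-coding transcripts; ABLIM1 has 1 cluster at -66.2 kb in 3 lists, and ABLIM3 has a cluster at 0.345 kb in all 4 lists and an upstream cluster in each MCF10A-named list.

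ABLIM3 had a cluster at its start in all 4 lists. By the same rule 0.286% of the 18866 genes had a cluster, not always the same one, in every list. Of the 2855 genes at least as long as ABLIM3, those with a cluster overlapping the body were 0.736% in the MCFDCIS-named D4, 4.10% in the MCFDCIS-named parental, 0.946% in the MCF10A-named D4 and 2.77% in the MCF10A-named parental list. The ABLIM3 start-site cluster, at chr5:148521401-148521410, was 10 bp wide, the smallest width in the lists, and lay 345 bp downstream of the canonical TSS. ABLIM3 (ENSG00000173210) runs on the plus strand over 119.1 kb (chr5:148521046-148640105), with 11 annotated transcripts, 6 of them protein-coding. In the canonical transcript ABLIM3-201 the cluster was in intron 1, which is 0.354 kb long. In ABLIM3-205 and ABLIM3-204 it was in exon 1, and the start of ABLIM3-204 was 17 bp before it. Several annotated starts of the gene thus lie close to the cluster, and the data do not tell which of them it belongs to.

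The start-site cluster of ABLIM3 was near the middle of both D4 lists. In the MCFDCIS-named D4 list it had a score of 9.46 and rank 49 of 99, equal to the list median and shared with other clusters, 7 in all. In the MCFDCIS-named parental list it had 32.6 and rank 188 of 651, 1.62 times the median. In the MCF10A-named D4 list it had 8.57 and rank 64 of 138, 1.02 times the median. In the MCF10A-named parental list it had 7.83 and rank 435 of 490, 0.647 times the median. It was therefore the weakest of the 3 MCF10A-named parental entries described here, while it ranked slightly above the ABLIM1 cluster in the MCFDCIS-named parental list. Among the 65 clusters common to the MCFDCIS-named D4 and parental lists it stood at rank 39 by D4 score and 25 by parental score. Among the 67 common to the MCF10A-named pair it stood at rank 29 by D4 score and 55 by parental score.

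ABLIM3 also had upstream clusters, and those of the D4 and the parental list were different. Both were in MCF10A-named lists only. The MCF10A-named D4 list of 138 and parental list of 490 clusters shared 67 with identical ends. Most clusters of each list were thus not shared in this way, so such a difference is not particular to ABLIM3. In the MCF10A-named D4 list a 110 bp cluster at chr5:148493351-148493460 lay 27.6 kb upstream of the canonical TSS, with a score of 14.6 and rank 18 of 138. It overlapped the long non-coding gene SH3TC2-DT. In the MCF10A-named parental list a 1360 bp cluster at chr5:148513901-148515260 lay 5.80 kb upstream, between SH3TC2-DT and ABLIM3, with a score of 41.7 and rank 28 of 490. In each of these lists the upstream cluster outranked the one at the start site. SH3TC2, the protein-coding neighbour transcribed away from ABLIM3, had all 3 ABLIM3 clusters within its own 100 kb window, at 50.7, 71.3 and 78.8 kb from its canonical TSS.

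**Figure D2:**
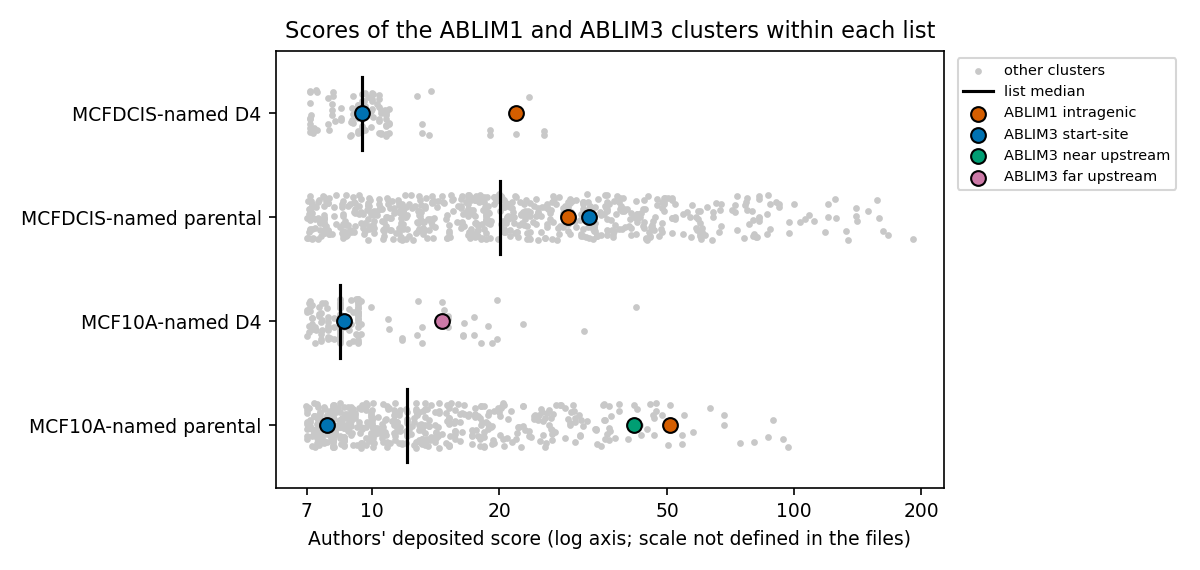
Deposited score of every cluster (grey points, log axis) in the 4 lists, with the list median as a black line and the ABLIM1 and ABLIM3 clusters in colour. The ABLIM1 cluster is right of the median in its 3 lists, whereas the ABLIM3 start-site cluster is at or near it in both D4 lists, at 9.46 and 8.57, and left of it in the MCF10A-named parental list, at 7.83.

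The clusters next outside the 100 kb window of ABLIM3 were within SH3TC2. One at chr5:148366301-148366510, 154.5 kb from the ABLIM3 canonical TSS, was in both parental lists, at rank 116 of 651 (MCFDCIS-named) and 204 of 490 (MCF10A-named). A 1360 bp cluster at chr5:148344901-148346260, at 174.8 kb, was at rank 16 of 99 in the MCFDCIS-named D4 list, 3 of 651 in the MCFDCIS-named parental and 20 of 490 in the MCF10A-named parental list. The farthest cluster inside the limit was the one at 27.6 kb. Within 1000 kb of the ABLIM3 canonical TSS there were 13 distinct clusters over all lists, against 1 for ABLIM1, so ABLIM3 lies in a stretch with several clusters and ABLIM1 does not.

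Sequence composition separated the start-site cluster from the others. In the 500 bp around its centre GC content was 64.4%, with 31 CpG dinucleotides and an observed-to-expected CpG ratio of 0.599. GC content was 47.6% around the ABLIM1 cluster, 34.0% around the near upstream and 32.0% around the far upstream cluster of ABLIM3, with 3, 2 and 2 CpG. The list medians were 48.4% (MCFDCIS-named D4), 47.0% (MCFDCIS-named parental), 42.1% (MCF10A-named D4) and 47.8% (MCF10A-named parental). The start-site value was above that of 89.9% to 96.4% of the clusters of a list, and the near upstream value was above that of 4.29% of the MCF10A-named parental clusters. A search for further close matches of the central 100 bp of each cluster in the genome (at least 95% identity over at least 90 bp) gave 0 for all 4, whereas 30 of the 897 distinct clusters (3.34%) had one.

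Of the 10 motifs searched on both strands in the 500 bp windows, the kinds matched differed in part between clusters. C/EBP letters matched at both the ABLIM1 and the far upstream ABLIM3 cluster. NF-Y letters matched at both the start-site and the near upstream ABLIM3 cluster. The ABLIM1 window held the TEAD letters GGAATG 2 times, once within the cluster, and the C/EBP letters TTGCNNAA 4 times, 3 of them within the cluster. The TEAD letters were in 27.3% of MCFDCIS-named D4, 37.2% of MCFDCIS-named parental and 38.8% of MCF10A-named parental clusters, against 23.7%, 26.4% and 24.3% of windows of the same length 5 kb to either side. The C/EBP letters were in 29.3%, 36.3% and 36.9% of the clusters of those lists, against 17.7%, 20.1% and 21.6% of flanking windows. Single matches of this kind are therefore common, in clusters and outside them. The shares count windows with the letters at least once, and shares with several TEAD or C/EBP matches are not given here. The far upstream ABLIM3 window held the C/EBP letters 3 times, 2 of them within the cluster, where the MCF10A-named D4 shares were 34.8% of clusters and 25% of flanks.

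The start-site window of ABLIM3 held the SP/KLF letters GGGCGG 3 times, the NF-Y letters CCAAT once, at -20 bp from the cluster centre, and the RUNX letters TGTGGT once. The SP/KLF letters were at least once in 26.3% of MCFDCIS-named D4 and 19.0% of MCFDCIS-named parental clusters, against 12.6% and 11.6% of flanks. For the MCF10A-named lists the shares were 11.6% of D4 and 19.6% of parental clusters, against 7.25% and 10.9% of flanks. Shares with several SP/KLF matches are not given here. CCAAT was as common in flanks as in clusters or nearly so, at 44.9% to 49.2% of flanks and 45.0% to 53.6% of clusters. The RUNX letters were in 25.8% to 37.3% of flanks and 31.3% to 36.7% of clusters. The AP-1 letters TGANTCA and the glucocorticoid response element (GRE) were not in the start-site, far upstream or ABLIM1 windows, even at 1000 bp.

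The near upstream cluster of ABLIM3 held a CArG box, the SRF site, 9 bp from its centre. CArG boxes were in 3.67% of the 500 bp windows of MCF10A-named parental clusters and 2.55% of their flanks. Over its full 1360 bp the cluster held the AP-1 letters 3 times and the GRE letters at 1 place, where the matches on the 2 strands overlap. It also held the CCAAT and TEAD letters, whose shares in windows of this length are not given here. Of windows of 1360 bp around MCF10A-named parental clusters 55.3% held the AP-1 letters at least once and 5.51% (27 of 490) at least 3 times, against 35.3% and 1.73% of flanks. The GRE letters were in 23.1% of such windows and 13.4% of flanks, and the CArG box in 9.18% and 7.24%. A match gives letters in a window, not a bound site, and no motif share was tested.

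**Figure D3:**
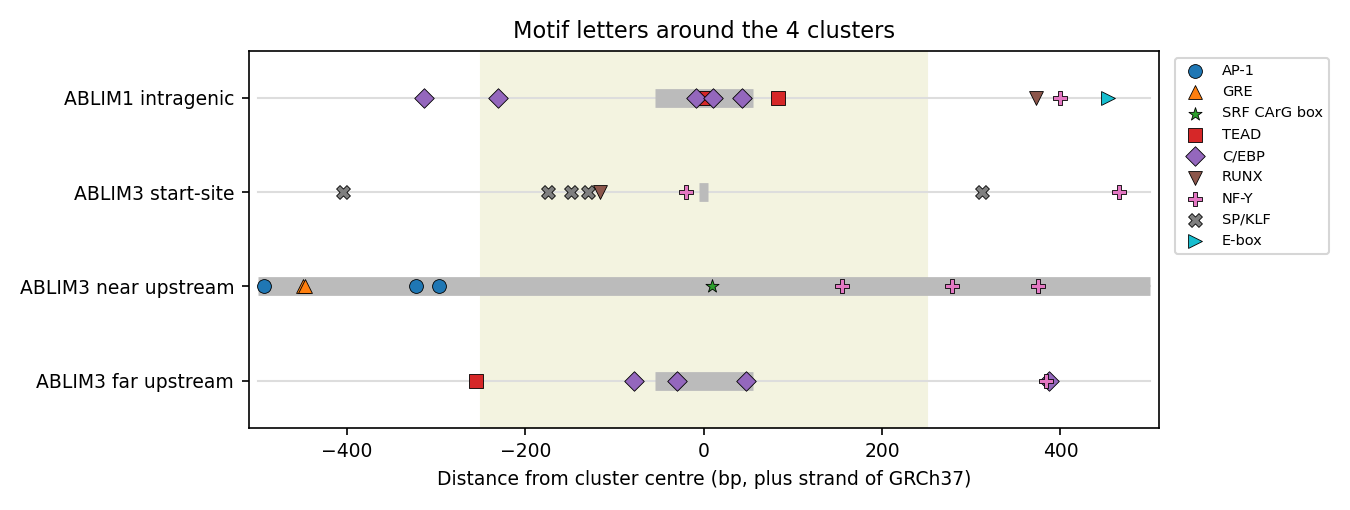
Motif matches on either strand in the 1000 bp around the centre of each cluster, as distance from the centre in bp on the plus strand. Grey bars show the cluster (the near upstream one is wider than the plot) and the shaded band the 500 bp window. C/EBP letters lie within the ABLIM1 and far upstream clusters. SP/KLF and CCAAT letters lie in the window around the start-site cluster. The near upstream cluster holds the CArG box at 9 bp, with AP-1 and GRE letters to its left and CCAAT letters to its right.

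Start-site clusters in every list were rare. Of the 18866 genes, a cluster within 1 kb of the canonical TSS was at 0.148% (MCFDCIS-named D4), 0.302% (MCFDCIS-named parental), 0.0636% (MCF10A-named D4) and 0.186% (MCF10A-named parental). ABLIM3 was among the 0.0106% of genes with one in all 4 lists.

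Each list also held clusters at other actin-binding genes. A set of 100 genes, called the actin-binding list, did not include ABLIM1 and ABLIM3. It was drawn up without a stated outside source and with earlier results of these data known. The set is loosely drawn, as it also holds the transcription factor gene SRF. Its shares are therefore a description. Of its genes 97 lay on chromosomes with clusters and 15 of these had one by the same rule in any list. The MCFDCIS-named D4 list gave 8 of 97 (8.25%, against 1.55% of all genes), and the MCFDCIS-named parental list 13 (13.4% against 6.41%). The MCF10A-named D4 list gave 5 (5.15% against 1.04%), and the MCF10A-named parental list 10 (10.3% against 4.18%). The genes of the list are longer than others, with a median of 71.8 kb against 27.4 kb, and a longer body catches more clusters. The part of length in these shares was not tested. Some of these clusters lay outside the gene, and the window does not tell such a gene from its neighbours. AFAP1L1 and AFAP1L2, which neighbour ABLIM3 and ABLIM1, had no cluster.

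The 9 actin-binding genes of the list with a cluster in a D4 list included TLN2, VASP, VILL, MYO1E, ACTN4, PDLIM7, TPM1 and ACTN1. ACTN4 and VASP had a cluster in all 4 lists. TLN2, which encodes a talin that joins integrins to actin, had an intragenic cluster at rank 12 of 99 in the MCFDCIS-named D4 list and 293 of 651 in the MCFDCIS-named parental list, 213.2 kb from the canonical TSS. MYO1E, a class I myosin gene, had one 88.7 kb from the TSS within the gene, at rank 73 of 99 (MCFDCIS-named D4), 62 of 651 (MCFDCIS-named parental) and 277 of 490 (MCF10A-named parental). ACTN1, which encodes an actin cross-linking alpha-actinin, had one within the gene at 37.2 kb, at rank 89 of 99 (MCFDCIS-named D4), 559 of 651 (MCFDCIS-named parental) and 66 of 138 (MCF10A-named D4). VASP, whose product promotes actin filament growth, had 5 distinct clusters over the lists, all 28.2 to 82.9 kb from its TSS and outside the gene. ACTN4, another alpha-actinin gene, had intragenic clusters in all lists, at rank 68 of 99 (MCFDCIS-named D4), 437 and 484 of 651 (MCFDCIS-named parental), 117 of 138 (MCF10A-named D4) and 213 and 237 of 490 (MCF10A-named parental). VILL, a villin-like gene, had a single cluster 44.6 kb from its TSS at rank 16 of 99 (MCFDCIS-named D4), 284 of 651 (MCFDCIS-named parental) and 356 of 490 (MCF10A-named parental). PDLIM7, which encodes a PDZ and LIM domain protein, had a different cluster in each of 3 lists, and the nearest was 0.895 kb from the TSS in the MCFDCIS-named parental list at rank 367 of 651. TPM1, a tropomyosin gene, had a cluster only in the MCF10A-named D4 list, at rank 101 of 138 and 73.1 kb from the TSS.

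Actin-binding genes with parental clusters only were TNS4, DIAPH1, PDLIM4, CFL1, MYPN and SYNPO. TNS4, a tensin gene, had a cluster 8.73 kb from the TSS at rank 154 of 651 in the MCFDCIS-named and 12 of 490 in the MCF10A-named parental list. The best cluster of an actin-binding gene stood, by the median, lower in its list than that of all genes with a cluster, except in the MCFDCIS-named parental list. Its median position from the top was 63.1% against 42.4% in the MCFDCIS-named D4 list and 73.2% against 43.5% in the MCF10A-named D4 list. For parental lists the medians were 42.9% against 45.5% (MCFDCIS-named) and 50.4% against 36.3% (MCF10A-named). ABLIM1, at 4.04% from the top of the MCFDCIS-named D4 list, was above the best of these genes there, TLN2 at 12.1%. It was not above the best of them in either parental list. In the MCF10A-named parental list TNS4 outranked it, at rank 12 against 15 of 490. In the MCFDCIS-named parental list several of these genes did, with MYO1E the best at rank 62 against 220 of 651.

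**Figure D4:**
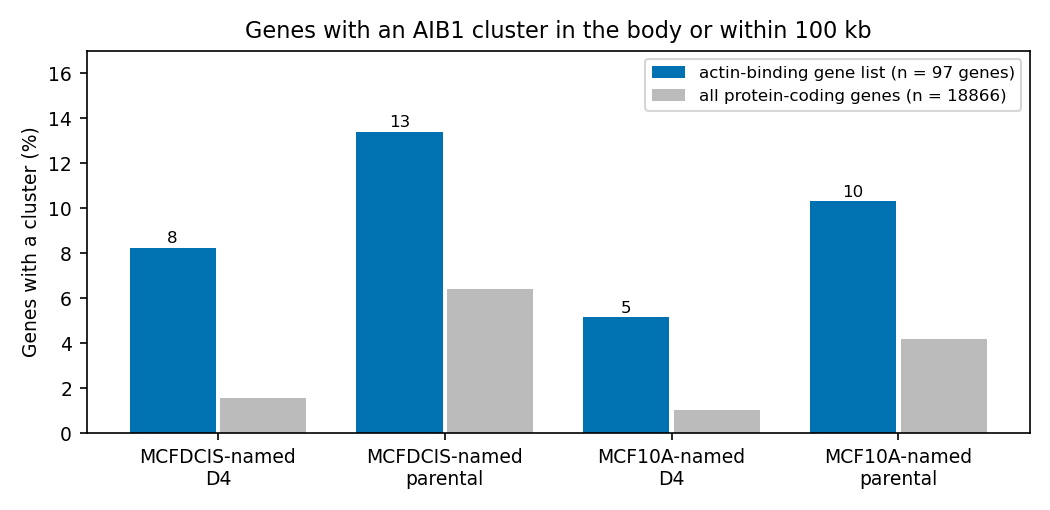
Share of genes with an AIB1 cluster in the body or within 100 kb of the canonical TSS, by list. Blue bars are 97 genes of the actin-binding list, without ABLIM1 and ABLIM3 (number of genes above each bar). Grey bars are all 18866 protein-coding genes. The actin-binding list was chosen with earlier results of these data known. The blue bars run from 5.15% to 13.4% and the grey bars from 1.04% to 6.41%.

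Some other genes had clusters in the same lists as ABLIM1 or ABLIM3. Counting clusters that overlap the gene body, of the 18866 genes 19 others were in the same 3 lists as ABLIM1. In all 4 lists, like ABLIM3, were 11 others. By the wider rule with the 100 kb window, 1.04% to 6.41% of genes had a cluster in a single list. These shares differ from the counts of 19 and 11 in rule and in number of lists, so they are no background for them. Both members were chosen with these lists known, so the counts are a description. Likeness was measured as the mean absolute difference of the best cluster's position from the top of each list, in percentage points. For ABLIM1 the closest over 3 lists were DNAJB12 (12.7 points), SH3TC2, the neighbour of ABLIM3 (15.5), RXRA (17.4), C1orf116 (18.7) and SRRM2 (18.9). For ABLIM3 the closest over 4 lists included PSAP (16.4 points), SREBF1 (24.8) and CHST3 (29.8).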

How the data were processed

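AIB1 ChIP-seq regions of 4 groups (3 ChIP samples and 1 input each) were analysed from 4 deposited lists. Crosslinking used 1.2% formaldehyde, per the labels' protocols, and per the series' design text the ChIP signal was normalized to input. The build is hg19 (GRCh37), per the submitters' processing notes. The sources used here do not state the aligner, the caller, its threshold, how replicates were pooled or what the score deposited by the authors measures. That score served only for ranks, a filter and ratios to the list median, each inside 1 list. As its scale is not known, a ratio shows the side of the median and is not a fold of binding.

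Positions were read against GRCh37 and its lifted GENCODE release 44, with 1 bp of overlap and the Ensembl canonical transcript as start site (the outer gene end for the few genes without one). All 1378 entries lay within chromosome ends, and all started on a 50 bp grid. Genes on the 20 chromosomes with clusters were counted. Where lists are said to share a cluster, both ends were identical. Motif letters were searched on both strands in 500 bp windows and in windows 5 kb to either side. Close matches were sought with minimap2 2.31. Overlap and motif searches were tested on simulated clusters and sequences. Named genes were the members, every neighbour whose window holds a member cluster, up to 5 genes most like each member, and, of the actin-binding list, every gene with a D4 cluster and up to 8 with parental clusters only. Some genes that this rule names are not reported here. The members and lists were chosen with earlier results of these data known. Software was Python 3.11.15 with pandas 2.3.3, numpy 2.4.6, pysam 0.24.0 and matplotlib 3.10.9, and samtools 1.23.1.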

Additional observations from a re-analysis of the deposited data

How the results depend on the processing

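Of 72 values under other settings 48 were the same or within 1.5 times the reported count and 24 moved. The single ABLIM1 cluster of 3 lists, and its absence from the MCF10A-named D4 list, held under every setting run, as did the numbers of clusters shared by overlap when identical ends were required. At ABLIM3, clusters wider than 10 bp numbered 0 in both MCFDCIS-named lists and 1 in each MCF10A-named list. With clusters above the median score the count was 0 in the MCFDCIS-named D4 list, where the cluster equals the median, and 1 in the MCF10A-named parental list. With the gene body only it was 1 in each MCF10A-named list, and with a 25 kb window 1 in the MCF10A-named D4 list, because the upstream clusters then fall outside. Actin-binding genes with a cluster numbered 5 (gene body only) and 3 (above the median score) in the MCFDCIS-named D4 list. They numbered 3 (25 kb), 3 (gene body only), 1 (above the median) and 2 (wider than 10 bp) in the MCF10A-named D4 list. Under the same settings they numbered 5, 4, 5 and 6 in the MCF10A-named parental list. The share of all genes is not given for these settings. The comparison of actin-binding genes with all genes therefore covers the main rule only. The kinds of motif matched numbered 5 at ABLIM1, 3 far upstream and 4 near upstream of ABLIM3 with 1000 bp windows, and 1 near upstream and 1 at the start site with 200 bp windows, as wider windows hold more letters. No paired analysis was possible because each group has a single list without replicate values, and for the same reason no replicate could be left out. Depth is unknown.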
